A study of Drosophila melanogaster with 96 samples.

Results

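The meiotic arrest genes of the Drosophila melanogaster spermatocyte were followed through 96 RNA libraries, each from 1 whole fly. The 10 members were chosen by name out of 17370 genes in the count files. They are aly (FBgn0004372), comr (FBgn0034667), topi (FBgn0037751), can (FBgn0011569), sa (FBgn0002842), mia (FBgn0014342), nht (FBgn0041103), rye (FBgn0031623), bol (FBgn0011206) and twe (FBgn0002673). Of these, 9 were matched by FlyBase symbol and rye by its synonym, the current symbol being Taf12L. RefSeq also lists rye as a synonym of the acetylcholine receptor gene nAChRalpha4, and the TAF12 homologue was taken. All flies were virgin w1118 adults aged 3 days that had been fed a chemically defined food in single wells, starved on buffered saline and refed. The refeeding food held the red dye sulforhodamine B and either no dimethyl sulfoxide (DMSO, a drug solvent) or 0.1, 0.2 or 0.4% of it by volume, for 0, 2, 4 or 8 h. The 32 groups of sex, time and DMSO level held 3 flies each, and flies at 0 h carry a DMSO label although no feeding time had passed. Flies of different times were on different plates, so time and plate cannot be told apart. The replicates are separate flies, so p-values measure the spread between individuals.

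Spermatocytes of the fly testis grow through a long G2 phase and transcribe ahead of time most genes that meiosis and spermatid differentiation will use. Most of the proteins encoded by the members belong to a pair of transcription complexes. In mutants of the genes of these complexes, spermatocytes halt before the meiotic divisions and spermatids do not form. Aly, Comr and Topi are subunits of tMAC, the testis relative of the dREAM/MuvB complex: Aly is a homologue of LIN-9, Comr has a winged-helix domain and Topi is a zinc-finger protein. can, sa, mia, nht and rye encode testis forms of the TFIID subunits (TAFs) Taf5, Taf8, Taf6, Taf4 and Taf12. The other members act at the division itself. twe encodes the meiotic Cdc25 phosphatase, which activates Cdk1 and is also used in the female germline, and bol encodes an RNA-binding protein of the DAZ family needed for translation of twe mRNA. The members lie on chromosome arms 2L (nht, rye, twe), 2R (comr), 3L (aly, can, sa, bol) and 3R (mia, topi). The X, which holds 15.6% of protein-coding genes, carries 0 of the 10.

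Gene counts per library ran from 2617075 to 9215796 in females and from 958896 to 8493895 in males. Most members are scarce: in males 3 counts correspond to 0.353 to 3.13 CPM (counts scaled to a common total of gene counts). Replicate 3 of the females at 8 h on 0.4% DMSO, as labelled, held male transcripts, the dosage compensation RNA lncRNA:roX1 standing at 43.0% of the median of the 48 males. Female values are given for the other 47 unless stated. The shallowest library (male, 4 h, 0.4% DMSO, replicate 1) held 7061 CPM of the antimicrobial peptide transcript DptA. RNA of the flies was mixed with RNA of a Hawaiian Drosophila and a mosquito before library preparation, and its part in these counts was not tested. Summed over 8 genes, female soma and ovary markers were at most 27.1 CPM in the 48 males. Summed over 5 genes, sperm-tail markers were at most 4.37 CPM in the 47 females. In whole flies, fewer cells of a type and less RNA per cell cannot be told apart.

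Most of the arrest genes were male transcripts, while mia and twe were the closest between the sexes. The sexes were compared in flies without DMSO at 0 and 2 h, 6 of each sex from 1 sequencing run, with edgeR's quasi-likelihood test and Benjamini-Hochberg adjustment over 12069 genes. In this test 9 of 10 members were lower in females, where 39.8% of all genes were lower, 26.1% were higher and 65.9% were called in either direction. Of these members, aly, can, comr, sa, nht and rye passed the filter on low counts only through the males. Their direction was thus fixed in advance, and the count of 9 is a description. The median log2 difference, female minus male, was -5.82 over the members and -0.19 over all genes tested. With the 3 members at 0 female counts set to a floor of 3 counts over the 6 females, the members' median was -5.73.

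The tMAC gene aly measured 9.44 to 13.9 CPM in the 6 males with a median of 10.9, and had 0 counts in the 6 females. comr, the scarcest member, measured 2.53 to 5.72 CPM in males (median 2.75) and had a single count in 1 female. topi measured 23.1 to 38.4 CPM in males (median 29.0) and 0.725 to 3.43 CPM in females (median 2.41). The sexes did not overlap for these genes. Ratios of counts and floors in the comparison of the sexes use summed counts over library totals with no scaling, unlike the CPM ranges. Against a floor of 3 counts over the female group, aly was 73.5-fold higher in males. comr had 79 counts in males against 1, a ratio of 66.5 in CPM with a counting interval from 11.6 to 2660. The log2 difference of topi was -3.86 (SE 0.33, adjusted p = 1.06e-07).

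Among the testis TAFs, sa, nht, can and rye were at or near 0 in females and mia was not. sa measured 8.45 to 21.3 CPM in males (median 15.99) against 0 counts, 99.9-fold the floor. nht measured 5.47 to 11.7 CPM (median 8.87) against 0 counts, 58.4-fold the floor. The exact counting intervals of the male to female ratios had lower limits of 59.4 for aly, 80.8 for sa and 47.05 for nht. can measured 6.32 to 12.4 CPM (median 9.495) against 1 count, a ratio of 187 (33.2 to 7415). These genes encode the testis forms of Taf8, Taf4 and Taf5. rye, the testis form of Taf12, measured 16.9 to 28.0 CPM in males (median 23.1) and 0 to 0.869 CPM in females (median 0.521), a log2 difference of -5.59 (SE 0.32, adjusted p = 1.52e-09). mia, the testis form of Taf6, measured 8.65 to 15.7 CPM in males (median 10.4) and 4.64 to 6.51 CPM in females (median 5.36). Its ranges did not overlap, and its log2 difference was -0.99 (SE 0.20, adjusted p = 0.000664).

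The division genes differed from each other. bol was the most abundant member in males, at 344 to 606 CPM (median 487), and measured 18.8 to 36.6 CPM in females (median 32.2). The log2 difference was -4.12 (SE 0.18, adjusted p = 1.75e-10), without overlap. twe overlapped between the sexes, with 37.3 to 74.4 CPM in males (median 65.4) and 3.74 to 68.1 CPM in females (median 38.9). Its log2 difference of -0.62 (SE 0.42, adjusted p = 0.211) had a 95% interval from -1.44 to 0.21. Without female replicate 2 at 0 h, the highest female, it was -1.10 (adjusted p = 0.0338). The scaling moved the closest calls: with library totals alone the median of all genes was 0.44, mia lay at -0.39 (adjusted p = 0.285) and twe at -0.01. Relative to the median of all genes, mia lay at -0.80 with the scaling used and -0.83 without scaling, and twe at -0.42 and -0.46.

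**Figure D1:**
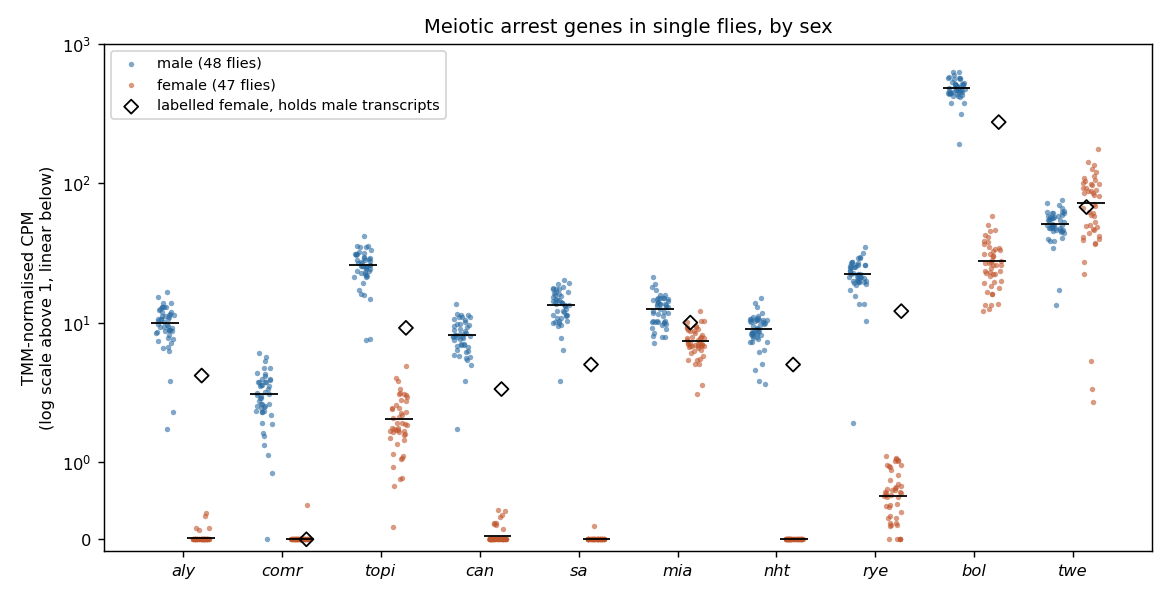
TMM-normalised CPM of each member in each fly (y axis, logarithmic above 1 and linear below), scaled within each sex; short lines are means over 48 males and 47 females, and diamonds are the library labelled female that held male transcripts. aly, comr, can, sa and nht lie at or near 0 in the 47 females, while mia and twe overlap between the sexes.

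Over all 47 females, nht had 0 counts among 235385887 gene counts, which allows up to 0.0127 CPM for counting error only. sa and comr had 1 count each, aly 7 and can 10. These 5 genes were thus close to the floor in every female. rye had 140 counts, was at 0 in 5 of the 47 flies and reached 1.11 CPM. topi was above 0 in each fly, from 0.159 to 4.87 CPM (median 1.84). mia ranged from 3.07 to 12.2 CPM (median 7.09), bol from 12.1 to 57.9 CPM (median 26.1), and twe from 2.68 to 177 CPM (median 69.1). Per kilobase of exon over all 48 libraries labelled female, twe had the highest level among the members, a median of 28.7 CPM per kb, before bol with 3.24, mia with 2.74, rye with 1.01 and topi with 0.702.

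The other subunits of tMAC mostly followed aly, comr and topi. Of 6 listed, 5 were lower in females and 1 higher (3 and 1 without scaling). tomb, a CXC-domain protein, had a log2 difference of -3.68 (SE 0.46), and wuc, a relative of lin-52, had 1 count over the 6 females. Caf1-55, a histone-binding subunit of many chromatin complexes, was higher in females by 1.94 (SE 0.22). achi and vis are near-identical copies, so their reads cannot be divided with certainty. Of 6 subunits or partners of dREAM/MuvB, 4 were higher in females, as were 26.1% of all genes, and 0 lower (6 and 0 without scaling), among them mip120 with a log2 difference of 1.87 (SE 0.26). Of the 5 general TAFs matched to the testis TAFs, 4 were higher in females and 0 lower, from 0.44 (Taf4, SE 0.17) to 1.14 (Taf5, SE 0.25). That count was 3 with RLE scaling and 5 without scaling.

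Genes downstream in the male germline were all lower in females. This held for 29 of 29 listed genes of spermatid differentiation, 16 of them at 0 counts in females. Those 16 passed the filter on low counts only through the males, so their direction was fixed in advance. The 10 Y-linked fertility genes were all at 0 counts in the 6 females. Females carry no Y chromosome, so that outcome was fixed in advance. Fitted median log2 differences were -12.26 for the spermatid genes and -8.80 for the Y-linked genes. With genes at 0 counts set to a floor of 3 counts over the 6 females, they were -10.93 and -6.35. Of 14 other spermatocyte regulators, 11 were lower and 3 higher (bam, Nxt1 and thoc5). Among the 14, 5 were at 0 counts in females and likewise passed the filter only through the males. bgcn, a partner of bam in ending spermatogonial divisions, lay at -6.03 (SE 0.30). Of 11 meiotic cell cycle genes, 3 were lower in females and 7 higher. stg, the mitotic Cdc25 and paralogue of twe, was higher by 5.50 (SE 0.47), and CycB, the cyclin partner of Cdk1, by 3.34 (SE 0.33).

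In males the members spanned a wide range of levels. Per kilobase of exon, bol stood highest at 58.7 CPM per kb ± 9.34 (SD, n = 48), then rye at 37.6 ± 9.43 and twe at 21.6 ± 4.92. sa followed at 14 ± 3.59, topi at 9.70 ± 2.53 and nht at 9.52 ± 2.39. mia stood at 4.84 ± 1.19, aly at 4.35 ± 1.31, can at 2.74 ± 0.76 and comr at 1.53 ± 0.608. Most neighbours in this order kept it in 44 to 47 of the 48 males. topi exceeded nht in 26 males and mia exceeded aly in 29, so those neighbours were not separated. The exon length used for bol, 8169 bases over all annotated transcripts, may exceed that of the transcripts in use. bol shares exon bases with a transposon annotated on its strand, and twe with EndoGI on the opposite strand.

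Each testis TAF was set beside its general relative within each male. rye stood at 37.6 CPM per kb against 15.5 for Taf12, and was the higher in 46 of 48 males. sa stood at 14 against 8.97 for Taf8, the higher in 47. For the other pairs the general form led. nht stood at 9.52 against 13.2 for Taf4 (higher in 4 males), can at 2.74 against 4.35 for Taf5 (higher in 5) and mia at 4.84 against 11.3 for Taf6 (higher in 0). In the 48 libraries labelled female, the testis form was the higher in 0 for all 5 pairs. General TAFs are used throughout the body, so these ratios are not those of a spermatocyte.

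Female twe varied with oocyte transcripts and female bol with neuronal ones. Over 47 females, all in 1 run, twe correlated with bcd, an mRNA laid down in the oocyte (Pearson's r = 0.917, Spearman's rho = 0.891), with gcl, a maternal gene for germ cell formation (r = 0.862, rho = 0.875), and with CycB (r = 0.964, rho = 0.971). bol correlated with the neuronal genes elav (r = 0.939, rho = 0.931), brp (r = 0.918, rho = 0.914) and nSyb (r = 0.908, rho = 0.894). bol and twe were negatively correlated (r = -0.692, rho = -0.776). Each of these had a permutation p = 1e-05, the smallest that 100000 resamples can give. Adjusted over the 24 relations computed, p was 1.85e-05 for r and 2.18e-05 for rho. The partner genes were chosen after their values were seen, and the adjustment does not cover that choice.

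Leaving out the 2 females with twe or bol farthest from the median gave r = 0.853 for twe with bcd, 0.775 with gcl and 0.951 with CycB. It gave 0.941 for bol with elav and -0.647 for bol with twe. For osk, another oocyte mRNA, r with twe went from 0.602 (permutation p = 8e-05) to 0.251, so the size of r rests on those 2 flies. Over all 47, rho was 0.493 (permutation p = 0.00051, adjusted p = 0.000926). In 3 females twe was below 6 CPM, at 2.68, 3.32 and 5.32 CPM. The first of these, at 2 h on 0.2% DMSO, also had the lowest bcd (0.766 CPM) and the highest bol (57.9 CPM) of the 47. All values are shares of a library, so that more RNA from one organ lowers the share of every other, and that part was not tested.

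**Figure D2:**
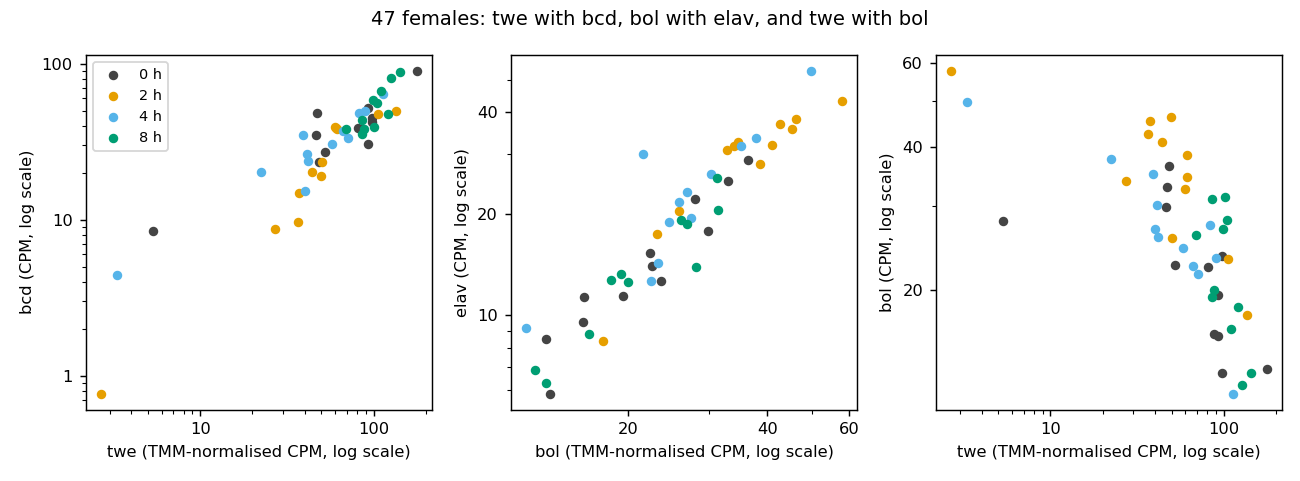
Each point is 1 of 47 females coloured by refeeding time, with TMM-normalised CPM on logarithmic axes, for twe and bcd (left), bol and elav (middle) and twe and bol (right). The pairs had r = 0.917, 0.939 and -0.692, and 3 females lie far to the left in twe.

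Refeeding moved no member past the threshold in males. Times were compared on the 3 foods with DMSO, 9 flies against 9, because food without DMSO was in another sequencing run at some times. aly measured 7.79 to 13.9 CPM at 0 h (median 9.53), 6.59 to 11.3 at 2 h (8.39), 3.81 to 15.3 at 4 h (11.3) and 1.72 to 16.7 at 8 h (8.92). topi measured 25.4 to 34.7 CPM at 0 h (median 26.9), 19.3 to 30.4 at 2 h (24.2), 7.62 to 35.2 at 4 h (28.1) and 7.47 to 32.2 at 8 h (21.9). For both genes the lowest flies were at 4 and 8 h, and every time overlapped with 0 h.

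The medians of the testis TAFs and the division genes followed no single course over time. Over 0, 2, 4 and 8 h, sa had medians of 14.3, 10.8, 13.9 and 13.2 CPM, nht 9.92, 9.03, 8.44 and 9.46 CPM, and rye 22.3, 20.0, 21.5 and 23.5 CPM. bol had medians of 463, 464, 490 and 485 CPM and twe 51.2, 49.7, 55.6 and 50.1 CPM. The medians of can lay between 7.92 and 8.88 CPM, those of mia between 11.7 and 13.4 CPM and those of comr between 2.88 and 3.50 CPM.

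At 2 h against 0 h edgeR called 0 of 10 members, where 1.4% of 12644 genes were called. At 4 h against 0 h it called 0 against 0.957% of genes, at 8 h against 0 h 0 against 11.3% (6.95% higher, 4.38% lower), and at 8 h against 2 h 0 against 4.24% (3.37% higher, 0.87% lower). At an unadjusted p below 0.05 there were 2 members at 8 h against 0 h, where 25.9% of genes had such a p. There were 0 at 2 h against 0 h (14.3% of genes), 4 h against 0 h (13.9%) and 8 h against 2 h (18.4%). DESeq2 called 1 member at 8 h against 0 h and 0 in the others. That member was topi, whose log2 difference was -0.45 (SE 0.16, adjusted p = 0.0666 with edgeR and 0.0297 with DESeq2). aly lay at -0.38 (SE 0.18, adjusted p = 0.177). The median log2 difference at 8 h was -0.14 over the members and 0.01 over all genes tested.

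Single flies decided these values. Without the shallow library, topi at 8 h passed (log2 -0.44, adjusted p = 0.0322). Without replicate 2 at 8 h on 0.1% DMSO, aly lay at -0.78 (adjusted p = 0.00329) and topi at -0.57 (adjusted p = 0.0189). Without replicate 1 at 8 h on 0.4% DMSO, topi lay at -0.56 (adjusted p = 0.0133). With 1 library whose labels give both 0 h and 8 h placed at 8 h, aly lay at -0.24 (adjusted p = 0.474). The 95% intervals of the 10 members reached from -0.65 to 0.40 at 2 h, from -0.59 to 0.45 at 4 h and from -0.78 to 0.35 at 8 h.

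**Figure D3:**
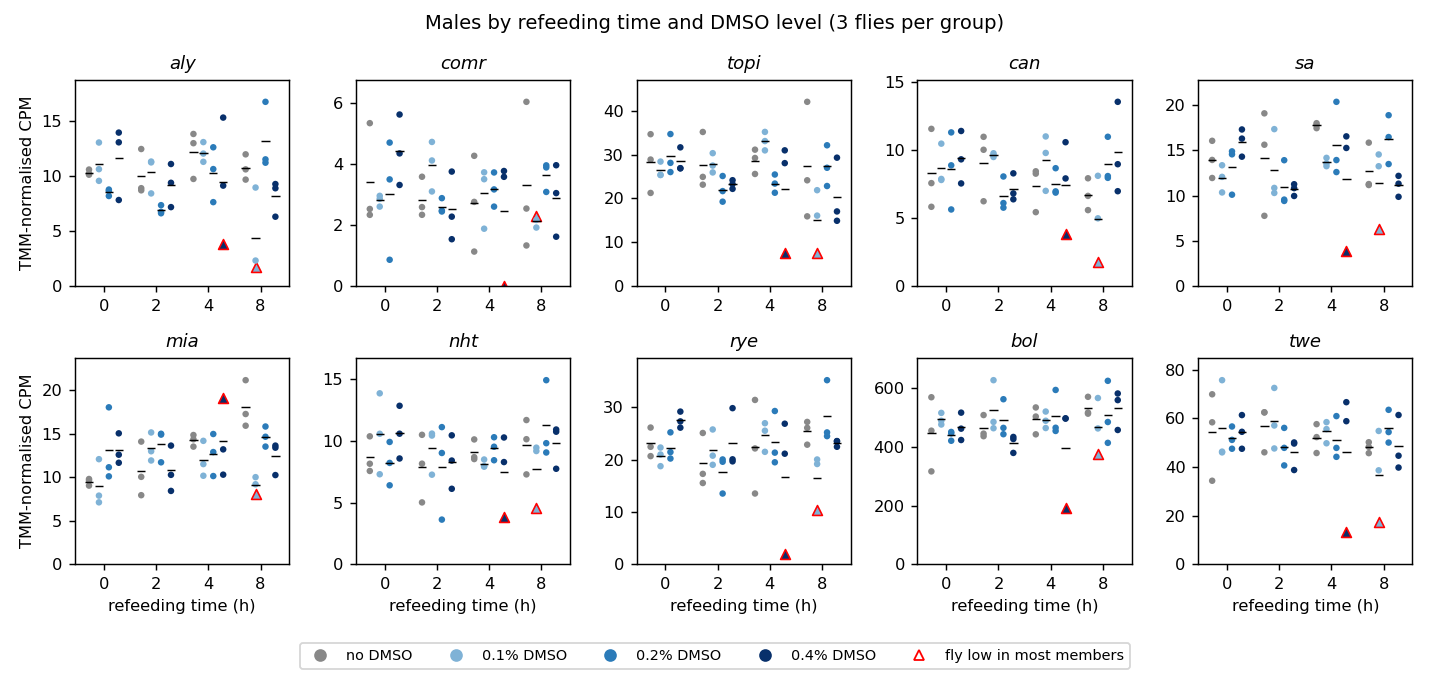
TMM-normalised CPM of each member in males (linear y axes from 0) by refeeding time and DMSO level, 3 flies per group with group means as short lines; red-edged triangles are the libraries at 4 h on 0.4% and at 8 h on 0.1% DMSO that were low in most members. bol in the first of them was 192 CPM, the lowest of the 48 males, and mia in the same fly was 19.1 CPM, near the top.

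Some pathway genes around the members were called in these comparisons. At 8 h against 0 h, 2 of 14 other spermatocyte regulators were lower, where 4.38% of all genes were. They were bgcn (log2 -0.53, SE 0.15), and eIF4G2, a translation factor needed for male meiosis (-0.52, SE 0.17). Of 29 spermatid differentiation genes 1 was higher, Mst87F of the sperm tail (0.35, SE 0.10), where 6.95% of all genes were. At 8 h against 2 h, 4 of the 29 were higher, where 3.37% of all genes were. These 4 were Mst84Db, Mst84Dc, Mst84Dd and Mst87F, by 0.39 to 0.51. Myb of the dREAM/MuvB list was lower at 8 h against 0 h (-0.29, SE 0.10). Taf2, a general TFIID subunit, was lower in both comparisons, by -0.50 (SE 0.12) and -0.40 (SE 0.12). Accessory gland markers moved at the same time, 5 of 6 higher at 8 h against 0 h, with summed levels of 2878 to 4358 CPM at 0 h and 4532 to 7912 CPM at 8 h. Their part in the members' shares was not tested.

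DMSO in the food moved no member past the threshold in males. At 8 h, when all 4 foods were in 1 run, any DMSO against none called 0 of 10 members (9 flies against 3), where 0.00791% of genes were called. The comparisons at 8 h share the same 3 flies without DMSO. mia, the testis form of Taf6, measured 21.1, 15.9 and 17.3 CPM without DMSO. It measured 8.04, 10.0 and 9.19 CPM on 0.1%, 15.8, 14.6 and 13.5 on 0.2%, and 10.2, 13.6 and 13.4 on 0.4%. The 9 flies on DMSO lay below the other 3, the closest values being 15.8 and 15.9 CPM. The log2 difference was -0.62 (SE 0.19, adjusted p = 0.81). At 0 h, before feeding on the test foods and in the other run, the flies labelled without DMSO measured 9.63, 9.03 and 9.79 CPM of mia with scaling over all males.

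On 0.1% DMSO at 8 h the 10 members all had log2 differences below 0, with a median of -0.47 against 0.02 over all genes, and 0 were called (0.00791% of genes). aly measured 1.72, 8.92 and 2.30 CPM, below the 10.6, 11.9 and 9.64 CPM without DMSO. Its log2 difference was -1.14 (SE 0.36, adjusted p = 0.23). topi measured 7.47, 21.9 and 16.1 CPM against 24.2, 15.9 and 42.1 CPM, twe 17.2, 54.9 and 38.7 CPM against 48.3, 45.7 and 50.2 CPM, and bol 376, 567 and 464 CPM against 571, 518 and 514 CPM. In these 3 genes the groups overlapped, and replicate 1 was the lowest fly on 0.1%. Without replicate 2, 3 members passed: aly (log2 -2.36, adjusted p = 0.00688), mia (-1.07, adjusted p = 0.0276) and topi (-1.18, adjusted p = 0.0334). In that fit the number of genes called over the whole table went from 1 to 1190.

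The members' medians on the higher levels of DMSO differed in sign, and the difference between levels at 8 h was not tested. Most members vary together from fly to fly, so counts of members by sign, here and on 0.1%, are descriptions. On 0.2% DMSO at 8 h 0 members were called (0.00791% of genes), 7 of 10 lay above 0 and the median log2 difference was 0.15. On 0.4% 0 were called (0% of genes), 2 lay above 0, 8 below, and the median was -0.18. aly, for example, measured 16.7, 11.2 and 11.5 CPM on 0.2% and 8.86, 6.27 and 9.24 CPM on 0.4%, the latter 3 all below the flies without DMSO. At an unadjusted p below 0.05 there was 1 member for any DMSO (5.35% of genes), 3 for 0.1% (13%), 0 for 0.2% (2.98%) and 1 for 0.4% (4.97%), and DESeq2 called 0 in each. Over fed males at 2, 4 and 8 h, 0.4% against 0.1% DMSO (9 flies each) also called 0 members with edgeR and DESeq2, with 0 at an unadjusted p below 0.05 and 0% of genes called. The members' intervals in that comparison reached from -0.59 to 0.52. On food without DMSO, 2 h against 0 h (3 flies each, in 1 run) called 0 members with edgeR and DESeq2, with 0 at an unadjusted p below 0.05, where 0.174% of genes were called (0.111% higher, 0.0633% lower).

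**Figure D4:**
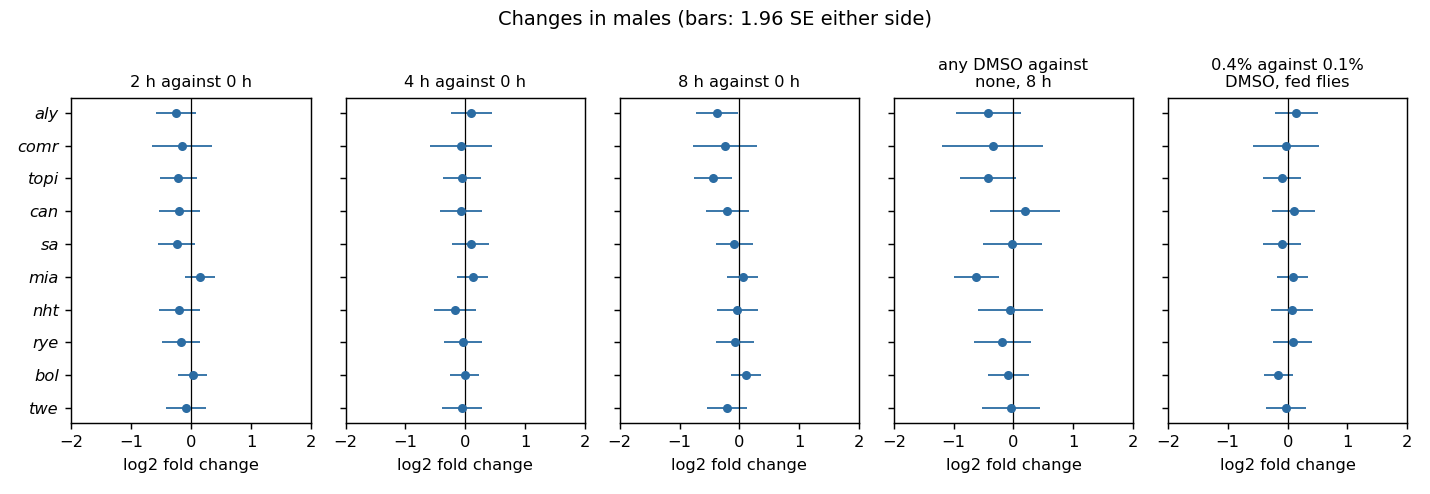
Log2 fold changes of the 10 members in males (points) with 95% intervals from their SE (bars) at 2, 4 and 8 h against 0 h on foods with DMSO, for any DMSO against none at 8 h, and for 0.4% against 0.1% DMSO in fed flies. No adjusted p passed 0.05 in the main test; the bars of aly and topi at 8 h and of mia for any DMSO lie below 0.

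Most members varied together from male to male, and mia did so least. With group means removed, log2 CPM of 39 of the 45 pairs of members had a correlation above 0 over the 48 males, with a median of 0.545. The highest were bol with twe (0.867), twe with topi (0.816) and sa with rye (0.796). mia had a median of -0.055 with the other 9 members and a highest of 0.038. These values are Pearson's r, and Spearman's rho was smaller for the high pairs. It was 0.743 for bol with twe, 0.685 for twe with topi and 0.611 for sa with rye. For rye with bol, r was 0.623 and rho 0.154, and for aly with topi 0.509 and 0.179. By rho, mia lay between -0.056 (topi) and 0.216 (sa). The flies share differences of depth and body composition, so these are descriptions. The SD of log2 CPM within groups ran from 0.268 for mia and 0.278 for bol to 0.561 for rye and 0.669 for comr, beside a median of 0.355 over 12558 genes. The low counts of comr add to its spread.

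Across the 48 males, twe varied with fzo, a mitofusin of the spermatid whose transcription needs the tMAC and testis TAF genes (r = 0.899, rho = 0.799), and with CycB (r = 0.893, rho = 0.764). Within the 8 and the 40 males of the 2 runs, r was 0.865 and 0.908 for fzo and 0.922 and 0.889 for CycB. topi with fzo gave r = 0.839 (rho = 0.839, 0.850 and 0.837 within runs) and with CycB 0.773 (rho = 0.618, 0.653 and 0.784 within runs). sa with fzo gave r = 0.743 (rho = 0.487, 0.472 and 0.778 within runs) and with CycB 0.755 (rho = 0.508, 0.746 and 0.757 within runs). Each of these r had a permutation p = 1e-05, the smallest possible, and 1.85e-05 after adjustment. Here too the partner genes were chosen after their values were seen, which the adjustment does not cover. Without the 2 farthest males, r was 0.760 and 0.707 for twe, 0.793 and 0.485 for topi, and 0.424 and 0.478 for sa.

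With Mst77F, a sperm chromatin protein gene, r was 0.296 for twe (adjusted permutation p = 0.0698), 0.180 for topi (0.275) and 0.219 for sa (0.176). With group means removed, r with Mst77F was 0.574 for twe, 0.505 for topi and 0.298 for sa. Correlations of the 3 genes with Mst84Db of the sperm tail lay between -0.067 and 0.131 and did not pass. With group means removed, they were 0.574 for twe, 0.420 for topi and 0.411 for sa, values given with no test. mia lay between -0.109 and 0.250 with the 4 genes and did not pass. The differences between these correlations were not tested.

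The genes most like the members' mean log2 CPM over 48 males, among 12548 searched, were Rpt4R (r = 0.922) and Rpt3R (0.903), paralogues of proteasome subunits, CG34434 (0.911), CG13455 (0.904) and LS2 (0.902), a paralogue of a splicing factor. Without the 2 farthest males, r was 0.692 to 0.791. Their mean levels were 10.6 to 61.4 CPM in males and 0.0970 to 1.72 unnormalised CPM in females. The median r of all genes searched was 0.005, and 304 genes exceeded 0.8.

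A pair of males stood apart in most members. In the shallow library at 4 h on 0.4% DMSO, 9 of 10 members were below 50% of the median of the other 46 males, as were 3342 of 12373 genes. bol had 101 counts, 39.99% of that median with a Poisson interval from 32.6 to 48.6%. twe had 7 counts (26.3%, 10.6 to 54.2%), topi 4 (29.3%, 7.99 to 75.1%) and rye 1 (8.52%, 0.216 to 47.5%). mia was the exception, at 10 counts and 150% (71.8 to 275%). aly, can, sa and nht had 2 counts each and comr 0, too few to place them.

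In the male at 8 h on 0.1% DMSO, replicate 1, 6 of 10 members were below 50%, as were 1937 of 12373 genes. aly had 3 counts (17.0%, 3.50 to 49.7%), can 3 (21.3%, 4.40 to 62.4%), topi 13 (28.7%, 15.3 to 49.1%) and twe 30 (34.0%, 22.9 to 48.5%). sa stood at 46.02%, rye at 46.2% and nht at 50.3%. bol was the least reduced with 655 counts, 78.2% (72.3 to 84.4%). comr stood at 75.0% and mia at 63.2%, with intervals that include 100%.

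Other germline transcripts were low in both males. Of 14 other spermatocyte regulators, 12 and 11 were below 50%. fzo stood at 2.48% and 20.2%, CycB at 26.8% and 45.2%, and the Y-linked kl-5 at 18.4% and 25.0%. Of 29 spermatid differentiation genes, 11 and 16 were below 50%, with dj of the sperm tail at 38.4% and 40.7% but Mst84Db at 95.0% and 91.8%. Accessory gland markers differed, Acp26Aa standing at 30.3% in the male at 4 h and 143% in the male at 8 h. The 3 neuronal markers stood at 74.5 to 116% (median 79.6%) in the male at 4 h, elav being the highest. In the male at 8 h they stood at 187 to 243%, with elav at 229%. The part of these in the members' levels was not tested.

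**Figure D5:**
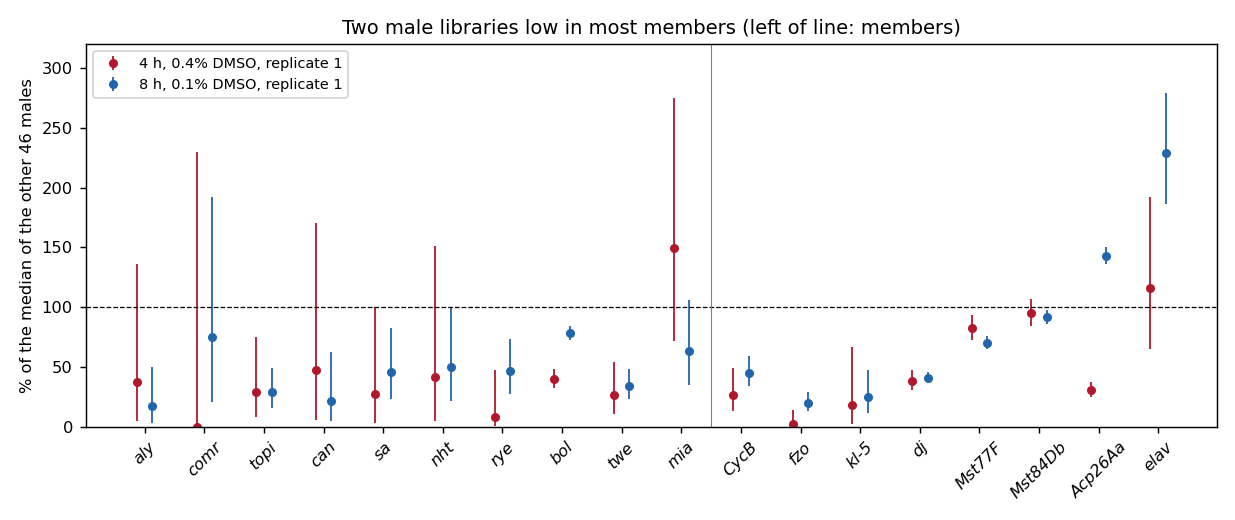
Level of each gene as a percentage of the median of the other 46 males (linear y axis from 0), with Poisson intervals of the count, in the males at 4 h on 0.4% DMSO and at 8 h on 0.1% DMSO; members stand left of the vertical line. bol lies at 39.99% and 78.2%, fzo at 2.48% and 20.2%, and Mst84Db at 95.0% and 91.8%.

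In females 4 members passed the filter on low counts: bol, twe, mia and topi. At 2 h against 0 h, over 4 foods and 12 flies per time, edgeR called 0 of 4, where 13.6% of 10060 genes were called (9.27% higher, 4.37% lower). There was 1 member at an unadjusted p below 0.05, as were 28.1% of genes, and DESeq2 called 0. That member, bol, measured 13.4 to 36.4 CPM at 0 h (median 22.5) and 17.7 to 57.9 CPM at 2 h (median 36.5), a log2 difference of 0.71 (SE 0.28, adjusted p = 0.09). It passed without the library with male transcripts (0.66, adjusted p = 0.015) and without replicate 1 at 2 h on 0.2% DMSO (0.79, adjusted p = 0.042). The 3 neuronal markers were higher at 2 h, elav by 1.05 (SE 0.25), brp by 1.16 (SE 0.26) and nSyb by 0.77 (SE 0.24) on the log2 scale, and 3 of 4 muscle markers with them. Their part in the level of bol was not tested. Among the pathway lists, Taf6 (-0.32, SE 0.10), Taf13 (-0.32, SE 0.11) and gdl (-1.34, SE 0.38) were lower at 2 h.

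twe ranged from 5.32 to 177 CPM at 0 h (median 84.2) and from 2.68 to 135 CPM at 2 h (median 49.9), a log2 difference of -0.39 (SE 0.38, adjusted p = 0.522). mia lay at -0.29 (SE 0.16, adjusted p = 0.224) and topi at 0.28 (SE 0.30, adjusted p = 0.562). At 8 h against 0 h edgeR and DESeq2 called 0 of 4, with 0 at an unadjusted p below 0.05, where 3.59% of genes were called (0.497% higher, 3.09% lower). In that comparison bol lay at 0.56 (SE 0.28, adjusted p = 0.256) and twe at 0.46 (SE 0.38, adjusted p = 0.467), in a fit that includes the library with male transcripts. Without that library bol measured 12.6 to 31.3 CPM at 8 h, and its median went from 22.5 CPM at 0 h to 19.98 CPM at 8 h.

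On 0.4% DMSO against none at 8 h, 1 of 4 members was called, bol, where 0.467% of genes were called, and the call came with the library that held male transcripts. bol measured 31.3, 13.4 and 275 CPM on DMSO, the last in that library, and 12.6, 18.4 and 28.1 CPM without DMSO. The log2 difference was 2.43 (SE 0.59, adjusted p = 0.0464), and 0.19 (adjusted p = 1) without that library. With the replicate block it was 2.34 (adjusted p = 0.101), and with any one of the 3 flies without DMSO left out the adjusted p was 0.104 to 0.301. topi measured 2.46, 2.73 and 9.17 CPM against 0.159, 1.90 and 2.18 CPM, a log2 difference of 1.78 (SE 0.63, adjusted p = 0.434).

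The library with male transcripts also held the members that other females lacked. It had 4.17 CPM of aly, 3.33 of can, 5.00 of sa, 5.00 of nht and 12.1 of rye, each above the other 47 females, and 0 counts of comr. As unnormalised CPM, aly, can, sa, nht, rye, bol and topi stood at 25.2 to 38.7% of the median of 48 males. With the median of the other females subtracted, topi stood at 17.8%, bol at 33.6% and rye at 34.7%. lncRNA:roX1 stood at 43.0%, Mst84Db at 45.9%, fzo at 25.9% and the accessory gland gene Acp26Aa at 72.7%. mia (10.0 CPM) and twe (67.5 CPM) lay within the range of the other females. The summed female soma and ovary markers stood at 8284 CPM in this library, within the range of the other females (837 to 32801 CPM) and above every male (at most 27.1 CPM).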

How the data were processed

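Poly(A)+ RNA of single whole flies was sequenced from stranded libraries, per the labels' protocols. The authors deposited whole-number counts per gene for each library. HTSeq 0.6.1p1, TopHat2 2.1.0, STAR 2.4.2a, CASAVA 1.8.2 and bcl2fastq 1.8 are named, without roles, in the submitters' processing notes. As the authors' build is not stated there, no coordinates are printed. Groups came from sample titles; for 1 male library (0.4% DMSO, replicate 2) the title gives 0 h and another label 8 h, and the title was used. Lines for 96 spike-ins and 5 summary lines (median 12.9% of a library) were left out. The 117 ribosomal RNA genes took a median of 17.6% of gene counts. Exon lengths and overlaps came from an Ensembl annotation that may differ from the authors'. All females and 8 males were in 1 sequencing run and 40 males in another, as the titles name them.

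Counts were fitted per sex (48 libraries as 16 groups) and between sexes (12 libraries) with edgeR 4.0.16 in R 4.3.3, using TMM scaling, filterByExpr, quasi-likelihood tests and Benjamini-Hochberg adjustment over all genes at 0.05. The fits were tested on simulated data in which only genes of higher mean counts were changed, so the scarcest members were not covered. Correlations across flies used log2(CPM + 0.5) with two-sided permutation tests of 100000 resamples. Intervals of counts and floors of 3 counts cover counting error only. Of 96 pairs of replicates 0 were identical, and chi-square per degree of freedom was at least 4.38. Same-numbered flies did not deviate together (75 of 360 male and 120 of 360 female pairs of libraries correlated above 0.1), so replicate numbers were not treated as pairs.

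The members and lists were chosen with earlier results of these data known. The rule names the members, genes of the lists that passed a test, and the 5 genes most like the members. The 2 low males, and list genes given for them or in correlations, were chosen after their values were seen. Alternatives were RLE scaling, DESeq2 1.42.0, no filter on low counts, a replicate block, no ribosomal RNA genes, the run as a term, the library with conflicting times placed at 8 h, leaving out the shallow library or the library with male transcripts, leaving out each library in turn (93 refits) and, chosen after seeing the data, library totals with no scaling.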

Additional observations from a re-analysis of the deposited data

Results flagged for a closer look

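In 60 groups of 6 or 9 flies examined, 10 held a highest or lowest value far from the rest. The rule's chance rate of about 1 in 20 cannot be set beside this count. Groups all at 0 cannot be flagged, a single count in a group always is, and members share the same libraries. Of these, 7 were the lowest of 9 males at 4 h on food with DMSO, and all were the shallow library. There comr was 0 CPM beside a group median of 3.50, sa 3.81 beside 13.9, nht 3.81 beside 8.44 and rye 1.91 beside 21.5. In the same library bol was 192 CPM beside 490, twe 13.3 beside 55.6 and topi 7.62 beside 28.1. Among the 6 males without DMSO at 0 and 2 h, mia was highest at 15.7 CPM, and the next fly had 10.9. Among the 6 females without DMSO at 0 and 2 h, can reached 0.161 CPM and comr 0.311 CPM, from 1 count each, where the other 5 flies had 0.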

How the results depend on the processing

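Of 309 recomputed counts of called members over 14 comparisons, 295 stayed at 0 or within 1.5 times the value reported. The count of 9 between the sexes ranged from 8 to 10. At 8 h against 0 h in males, 0 became 1 with DESeq2 and 1 without the shallow library, and was 0 to 2 with single libraries left out. For 0.1% DMSO at 8 h in males, the count was 0 to 3 with single libraries left out. At 2 h against 0 h in females, 0 became 1 without the library with male transcripts, and was 0 to 1 with single libraries left out. For 0.4% DMSO at 8 h in females, 1 became 0 with the replicate block, 0 with library totals, 0 without the library with male transcripts, and 0 to 1 with single libraries left out. The replicate block moved no other count by over 1.5 times. No called log2 difference reversed. Beyond the libraries left out, the cause was not tested. Depth limits the scarce members most: in the shallowest male 3 counts are 3.13 unnormalised CPM, near the male median of comr (3.24 unnormalised CPM). Changes within the intervals given were not detectable.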
